A study of Mus musculus with 16 samples.

Results

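The genes described here are 35 transcripts commonly used as macrophage markers, followed through cultured organs of Corti of newborn mice that carried a Rest mutation or not and received the deacetylase inhibitor FK228 or not. They were chosen by gene symbol from the authors' table of normalized values. That table held 33 of the 35 among its 21220 genes, and all 33 were tested among 17125 genes. The other two, Cd163 and Folr2, were counted in the per-library files, enter sums and levels, and did not pass the filter on low counts. The cultures came from C57BL/6 mice of postnatal day 0 and were kept for 3.5 days. The 4 groups were wild type with solvent, wild type with FK228, Rest(+/deltaExon4) with solvent and Rest(+/deltaExon4) with FK228, with 4 libraries each. Both solvent groups received 0.1% DMSO. FK228, a class I histone deacetylase inhibitor also called romidepsin, was given at 2 nM from day in vitro 1 to 1.5 and again from day 3 to 3.5. The Rest allele lacks exon 4 and is called heterozygous below. RNA of 6 to 8 cultures was pooled into each library. Nothing in the labels ties the pools to separate litters, and p-values reflect only how far the pools differ.

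Macrophages are phagocytes that settle in most tissues before birth, the cochlea included, where they clear debris and respond to injury. They depend on signals through the CSF1 receptor, and the transcription factor PU.1, encoded by Spi1, is required for their development. They read their surroundings through Fc, scavenger and pattern receptors that signal by way of small adaptor proteins, digest what they engulf in lysosomes, and secrete the complement component C1q. The organ of Corti is the sensory strip of the cochlea and holds hair cells and supporting cells. The share of macrophages in these cultures was not measured.

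Gene counts ran from 12361027 to 23611571 per library, and CPM below are counts scaled to a common library size with TMM factors. Rest lay between 69.9 and 94.8 CPM in the 16 libraries and passed the test in no contrast, and counts over the whole gene do not test for the missing exon. ERCC spike-in RNA took 0.312% to 0.393% of gene and spike-in counts in the heterozygous FK228 libraries and 0.156% to 0.237% in the other 12. When libraries were scaled by their spike-ins instead, the median over all genes shifted on the log2 scale to -0.16 for FK228 in wild type, -0.72 for FK228 in heterozygous cultures, -0.18 between genotypes in solvent and -0.74 between genotypes with FK228. All changes are therefore relative to the other transcripts of the same libraries.

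With FK228, 32 of the 33 macrophage genes tested fell in wild-type cultures and the same number fell in heterozygous cultures, and Coro1a rose in both. Of all genes tested, 25.3% fell and 23.7% rose in wild type, and 24.7% fell and 23.8% rose in heterozygous cultures. The median log2 fold change of the macrophage genes was -2.63 in wild type and -3.01 in heterozygous cultures, beside -0.01 and 0.00 over all genes. Only 0.765% of all genes in wild type and 0.596% in heterozygous cultures lay at or below those medians. A fall in bulk RNA does not separate fewer cells of a type from less RNA per cell. The largest adjusted p among the 33 was 0.00102 in wild type, for F13a1, and 0.00733 in heterozygous cultures, for Fcgr1 (edgeR quasi-likelihood test, Benjamini-Hochberg adjustment over all genes). In each genotype the 4 FK228 libraries did not overlap the 4 solvent libraries for any of the 33 genes. Over all genes, 22.8% in wild type and 21.5% in heterozygous cultures had every FK228 library below every solvent library, and 21.9% and 21.1% had every FK228 library above. Spike-in scaling left 32 genes lower and Coro1a higher in both genotypes, while its split over all genes changed to 62.6% lower and 4.71% higher in heterozygous cultures, and to 26.4% and 11.7% in wild type.

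Summed over the 35 genes, wild-type libraries 1 to 4 with solvent had 914, 831, 799 and 835 CPM, whereas with FK228 the wild-type libraries 1, 2, 4 and 7 had 163, 171, 132 and 155 CPM. The heterozygous solvent libraries 1, 2, 4 and 5 held 563, 764, 807 and 755 CPM, and with FK228 libraries 2 to 5 of this genotype had 114, 122, 137 and 117 CPM. Library values below follow this order. All FK228 libraries lay far below all solvent libraries, and heterozygous solvent library 1 was the lowest of the solvent libraries. The means were 845 ± 49.0, 155 ± 16.8, 722 ± 108 and 122 ± 10.5 CPM (SD, n = 4 each). The filter on low counts admitted some genes through their solvent libraries alone, and without a filter the median over all 35 was -2.58 in wild type and -2.80 in heterozygous cultures.

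**Figure D1:**
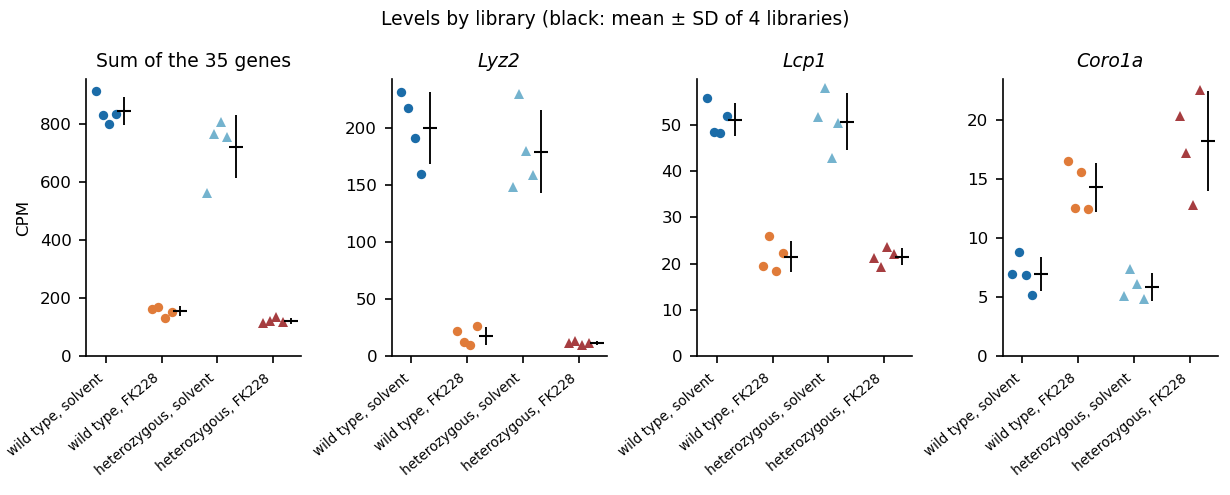
CPM of the 35 macrophage genes summed, and of Lyz2, Lcp1 and Coro1a, in each of the 16 libraries (points; circles wild type, triangles heterozygous), with the mean ± SD of 4 libraries in black. The sum fell from 845 to 155 CPM in wild type and from 722 to 122 CPM in heterozygous cultures, Lcp1 fell less, and Coro1a rose.

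In the wild-type solvent libraries the levels of the listed genes ranged widely. Compared per kilobase of exon, Lyz2 (152 CPM per kb), C1qb (62.9), Ctss (41.4), C1qa (32.6) and Cd68 (29.7) were the most abundant. Csf1r stood at 4.27 CPM per kb and Adgre1 at 9.41, while Ptprc (0.207), Folr2 (0.164), Itgam (0.160) and Cd163 (0.00470) were the lowest by this measure. The receptors Cd163 and Folr2, used as markers of resident macrophages in other tissues, were thus at or near 0. The length joins the exons of all transcripts, which for Ptprc came to 18313 bp, and Ptprc held 3.79 CPM. Some genes used as markers of other blood cells also had counts. Their summed levels went from 14.04 CPM in wild-type solvent to 9.70 CPM in wild-type FK228 libraries for 9 T and NK cell genes, from 4.68 to 0.547 CPM for 6 B cell genes, from 4.61 to 11.6 CPM for 13 granulocyte and monocyte genes and from 0.440 to 0.557 CPM for 7 mast cell genes. Lck made up most of the T and NK cell sum (11.3 CPM) and Prtn3 of the granulocyte sum with FK228 (10.6 CPM), while Cd3d had no count and no mast cell gene reached 1 CPM in any library. Whether such cells were present, and their part in the results, was not tested.

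A regulatory feature can be set beside this common movement. PU.1 binds purine-rich sites. The letters GAGGAA, which read TTCCTC from the opposite strand, were searched on both strands in the RefSeq promoters of GRCm38.p6, which span 250 bases before to 50 after each start. Promoters were found for 26 of the 35 genes, and 18 of these 26 (69.2%) held the motif, beside 31.3% of 27025 genes with a promoter in the table. The longer GAGGAAGT, which contains it, was in 5 of 26 (19.2%) and in 3.69% of all genes. A match is a description of letters and not a binding site. Printed here, 5′ to 3′ on the gene's strand with the motif in capitals, are the 250 bases before the start of 3 genes that fell and have it, and of 3 genes without it, namely Lyz2, which fell far, Lcp1, which fell least in heterozygous cultures, and Coro1a, which rose. The letters were not found before another start of Lcp1 or Coro1a. Any link between these letters and the change with FK228 was not tested. The final bases of the Lcp1 window lie in an exon of a GENCODE M21 transcript. Those of the Lyz2 window also lie within the bounds of its GENCODE M21 gene. The whole Coro1a window lies within the bounds of its gene, which begins at 126707787 on the minus strand.
C1qb (chr4:136886201-136886450, minus strand): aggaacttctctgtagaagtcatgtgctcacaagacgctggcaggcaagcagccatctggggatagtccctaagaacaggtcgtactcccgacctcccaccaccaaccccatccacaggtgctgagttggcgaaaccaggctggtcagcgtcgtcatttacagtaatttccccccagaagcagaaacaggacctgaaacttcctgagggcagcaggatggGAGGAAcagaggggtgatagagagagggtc
Cd53 (chr3:106790150-106790399, minus strand): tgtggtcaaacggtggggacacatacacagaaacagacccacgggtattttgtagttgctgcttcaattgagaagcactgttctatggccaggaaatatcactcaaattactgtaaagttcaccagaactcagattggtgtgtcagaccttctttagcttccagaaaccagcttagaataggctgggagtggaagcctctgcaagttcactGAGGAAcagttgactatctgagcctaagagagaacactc
Pf4 (chr5:90772185-90772434, plus strand): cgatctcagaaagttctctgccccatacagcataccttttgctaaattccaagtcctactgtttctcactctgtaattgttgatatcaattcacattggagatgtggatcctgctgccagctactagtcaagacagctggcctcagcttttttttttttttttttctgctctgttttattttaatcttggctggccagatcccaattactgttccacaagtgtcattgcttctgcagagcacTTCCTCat
Lyz2 (chr10:117282273-117282522, minus strand): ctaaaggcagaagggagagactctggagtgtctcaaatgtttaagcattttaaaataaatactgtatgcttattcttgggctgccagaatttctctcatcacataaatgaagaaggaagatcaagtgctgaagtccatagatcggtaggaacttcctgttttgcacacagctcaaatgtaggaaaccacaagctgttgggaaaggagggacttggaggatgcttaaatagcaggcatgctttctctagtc
Lcp1 (chr14:75130873-75131122, plus strand): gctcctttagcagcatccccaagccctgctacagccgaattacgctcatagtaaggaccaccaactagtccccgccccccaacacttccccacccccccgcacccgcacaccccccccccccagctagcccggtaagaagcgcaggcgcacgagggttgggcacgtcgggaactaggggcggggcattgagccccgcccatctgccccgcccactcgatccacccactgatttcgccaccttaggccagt
Coro1a (chr7:126704817-126705066, minus strand): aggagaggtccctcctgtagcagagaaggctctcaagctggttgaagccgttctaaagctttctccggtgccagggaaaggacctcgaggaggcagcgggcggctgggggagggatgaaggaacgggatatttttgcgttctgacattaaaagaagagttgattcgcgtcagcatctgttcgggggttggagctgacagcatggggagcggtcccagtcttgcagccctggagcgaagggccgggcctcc

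Among secreted complement proteins, the 3 chains of C1q, which opens the classical pathway, fell together. C1qa stood at 33.7, 33.8, 35.8 and 32.6 CPM in wild type with solvent and at 4.26, 5.26, 4.47 and 3.57 CPM with FK228. Heterozygous cultures had 16.8, 25.1, 31.2 and 27.7 CPM with solvent and 3.40, 2.14, 3.72 and 3.07 CPM with FK228. The wild-type solvent libraries were tightly grouped, heterozygous solvent library 1 was low, and no FK228 library came near any solvent library. The log2 fold change was -2.95 ± 0.18 (SE) in wild type (edgeR adjusted p = 1.06e-09) and -3.03 ± 0.19 in heterozygous cultures (adjusted p = 1.22e-09). C1qb fell from 68.4 ± 4.16 to 11.4 ± 1.14 CPM in wild type and from 46.3 ± 15.6 to 6.60 ± 1.95 CPM in heterozygous cultures (mean ± SD, n = 4). C1qc fell from 21 ± 1.14 to 3.40 ± 0.478 CPM and from 15.8 ± 4.87 to 1.55 ± 0.551 CPM. The 3 genes lie side by side on the minus strand of chromosome 4, within 136880129 to 136898803 (GRCm38).

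Tyrobp and Fcer1g encode the small transmembrane adaptors through which many myeloid receptors signal. Tyrobp fell from 18 ± 2.21 to 2.65 ± 0.338 CPM in wild type and from 16 ± 4.34 to 1.71 ± 0.936 CPM in heterozygous cultures. Fcer1g fell from 22.6 ± 1.89 to 4.23 ± 0.980 CPM and from 20.4 ± 3.78 to 3.12 ± 0.656 CPM. The log2 fold changes in wild type, -2.76 for Tyrobp and -2.42 for Fcer1g, lay on either side of the median of the list.

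Csf1r, the receptor for CSF1 and IL-34, held 25.3, 23.3, 25.4 and 24.7 CPM in wild type with solvent and 2.55, 5.02, 2.17 and 2.89 CPM with FK228. The heterozygous libraries held 9.996, 12.9, 29.6 and 22.8 CPM with solvent and 1.66, 1.45, 2.97 and 1.73 CPM with FK228. The heterozygous solvent libraries split into a low and a high pair, yet the low pair was still above every FK228 library. The log2 fold change was -2.97 ± 0.31 in wild type (edgeR adjusted p = 4.27e-07) and -3.26 ± 0.33 in heterozygous cultures (adjusted p = 3.23e-07). Its exons share 873 bp with Hmgxb3 on the opposite strand, and the counts do not use strand. The fractalkine receptor Cx3cr1 fell from 34.0 ± 7.25 to 3.61 ± 1.16 CPM in wild type and from 28.8 ± 8.41 to 2.26 ± 1.20 CPM in heterozygous cultures.

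The receptors for immune complexes and microbial products included some of the scarcest transcripts. Fcgr3, a low-affinity IgG receptor, fell from 10.2 ± 1.12 to 2.29 ± 0.884 CPM in wild type and from 8.53 ± 1.70 to 1.75 ± 0.410 CPM in heterozygous cultures. Fcgr1, the high-affinity IgG receptor, went from 95 counts over the wild-type solvent libraries to 11 with FK228, and from 50 to 14 in heterozygous cultures, with log2 fold changes of -2.92 ± 0.49 and -1.72 ± 0.49. Cd14, which presents lipopolysaccharide to TLR4, fell from 5.75 ± 1.28 to 0.601 ± 0.520 CPM and from 6.14 ± 3.43 to 0.485 ± 0.181 CPM. Trem2, a lipid-sensing receptor that pairs with the TYROBP adaptor, fell from 9.92 ± 1.42 to 0.988 ± 0.417 CPM and from 7.83 ± 2.25 to 0.623 ± 0.139 CPM. Itgam, the alpha chain of complement receptor 3, held 61 counts in wild type with solvent and 5 with FK228, and 50 and 5 in heterozygous cultures, and shares 3450 bp of exon with Gm49368 on its own strand.

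Scavenger receptors take up modified proteins and debris. Msr1 had 127 counts over the 4 wild-type solvent libraries and 2 over the 4 FK228 libraries, both of them in library 1. Set against library size, 1.74% of its solvent level was left, with an exact 95% counting interval of 0.208% to 6.41%. In heterozygous cultures it had 107 and 11 counts, or 11% left (5.32% to 20.5%), so that the intervals of the genotypes overlapped. Mrc1, the mannose receptor, fell from 12.8 ± 1.06 to 2.31 ± 0.999 CPM in wild type and from 9.18 ± 4.15 to 1.75 ± 1.95 CPM in heterozygous cultures. In heterozygous FK228 library 4 it reached 4.59 CPM, close to the 4.75 CPM of heterozygous solvent library 1. Stab1, an endocytic receptor also made by some endothelia, fell from 17.1 ± 2.97 to 2.95 ± 0.878 CPM and from 14.8 ± 3.44 to 4.04 ± 0.822 CPM. Cd163, the haemoglobin scavenger receptor, had 0 to 3 counts in every library. Folr2, a folate receptor, had 5, 5, 5 and 4 counts in wild type with solvent, 1, 1, 2 and 2 with FK228, 2, 2, 2 and 1 in heterozygous cultures with solvent, and 1, 0, 2 and 0 with FK228. Neither gene passed the filter on low counts.

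Among other surface proteins, Adgre1, which encodes the F4/80 antigen, fell from 30.5 ± 2.52 to 3.70 ± 0.541 CPM in wild type and from 31.1 ± 5.78 to 2.22 ± 1.54 CPM in heterozygous cultures. Ptprc, the pan-leukocyte phosphatase CD45, fell from 3.79 ± 1.46 to 0.876 ± 0.554 CPM and from 3.89 ± 0.315 to 0.766 ± 0.615 CPM. Cd53, a leukocyte tetraspanin, fell from 24.2 ± 2.21 to 5.05 ± 1.34 CPM and from 19.9 ± 2.73 to 2.31 ± 0.854 CPM. Ms4a7, a membrane protein of macrophages, fell from 20.7 ± 1.63 to 2.77 ± 0.499 CPM and from 19.6 ± 3.97 to 1.78 ± 0.850 CPM. Cd52, a short GPI-anchored glycoprotein, fell less in heterozygous cultures, with log2 fold changes of -2.17 ± 0.39 in wild type and -1.75 ± 0.40 there, a difference within its error (interaction, edgeR adjusted p = 0.994).

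The genes of digestion and killing were led by Lyz2, which encodes lysozyme. It held 231, 217, 191 and 159 CPM in wild type with solvent and 22.3, 12.8, 10.3 and 26.7 CPM with FK228. Heterozygous cultures had 148, 230, 180 and 159 CPM with solvent and 11.9, 13.4, 9.80 and 11.3 CPM with FK228. Every FK228 library was thus several-fold below every solvent library, with log2 fold changes of -3.47 ± 0.23 (edgeR adjusted p = 3.03e-09) and -3.94 ± 0.24 (adjusted p = 1.04e-09). Its near copy Lyz1 had 0 to 3 counts per library. Cd68, a lysosomal glycoprotein, fell from 37.3 ± 3.95 to 8.96 ± 0.612 CPM in wild type and from 28.9 ± 5.23 to 5.92 ± 1.46 CPM in heterozygous cultures. The cysteine protease gene Ctss fell from 56.2 ± 7.14 to 7.91 ± 1.64 CPM and from 41.6 ± 14 to 6.36 ± 1.72 CPM. Laptm5, a lysosomal membrane protein of blood cells, fell from 43.4 ± 3.04 to 11.6 ± 2.5 CPM and from 33.9 ± 8.98 to 9.36 ± 2.47 CPM. Mpeg1, which encodes the pore-forming perforin-2, fell from 15.6 ± 2.12 to 1.74 ± 0.362 CPM and from 17.5 ± 3.11 to 2.74 ± 0.973 CPM. Cybb, the catalytic subunit of the phagocyte NADPH oxidase, held 5.73 CPM in wild-type FK228 library 1 and 1.69 to 2.04 CPM in the other 3, against 14.1 to 21.1 CPM with solvent. In heterozygous cultures Cybb fell from 19.5 ± 3.35 to 1.25 ± 0.440 CPM.

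The cytoskeletal and signalling genes held the exceptions. Coro1a, which encodes the actin-binding protein coronin 1A of leukocytes, held 7.01, 8.80, 6.90 and 5.23 CPM in wild type with solvent and 16.6, 12.6, 15.6 and 12.5 CPM with FK228. In heterozygous cultures it held 5.10, 7.40, 6.13 and 4.86 CPM with solvent and 20.3, 17.2, 12.8 and 22.6 CPM with FK228. All FK228 libraries were above all solvent libraries, with log2 fold changes of 1.03 ± 0.19 in wild type (edgeR adjusted p = 0.000202) and 1.63 ± 0.20 in heterozygous cultures (adjusted p = 2.03e-06). With spike-in scaling these were 0.87 (adjusted p = 0.00338) and 0.94 (adjusted p = 0.000880). The raw counts behind these values were 91 to 160 per library in wild type with solvent and 208 to 292 with FK228. Coro1a shares 26 bp of exon with Bola2 on the opposite strand.

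Lcp1, which encodes the actin-bundling protein L-plastin, held 55.8, 48.4, 48.3 and 51.8 CPM in wild type with solvent and 19.5, 25.9, 18.4 and 22.3 CPM with FK228. The heterozygous libraries held 51.7, 57.9, 42.8 and 50.4 CPM with solvent and 21.2, 19.3, 23.6 and 22 CPM with FK228. The groups were clearly apart, with log2 fold changes of -1.25 ± 0.11 and -1.24 ± 0.11, the smallest standard errors of the list. Rac2, a GTPase of blood cells, fell from 12.0 ± 1.25 to 2.37 ± 0.558 CPM in wild type and from 11.8 ± 2.18 to 1.94 ± 0.281 CPM in heterozygous cultures. Aif1, which encodes the calcium-binding protein IBA1, fell from 6.67 ± 0.709 to 0.779 ± 0.219 CPM and from 4.75 ± 1.48 to 0.559 ± 0.0985 CPM.

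Pf4, the chemokine platelet factor 4, held 15.5, 13.7, 12.6 and 13.5 CPM in wild type with solvent and 6.24, 6.47, 4.83 and 5.89 CPM with FK228. In heterozygous cultures it held 8.39, 12.1, 14.7 and 11.7 CPM with solvent and 4.23, 2.62, 3.51 and 2.44 CPM with FK228. The fall was shallow in wild type, -1.24 ± 0.18, and -1.87 ± 0.19 in heterozygous cultures. Pf4 is also a platelet gene. Of 5 other platelet genes only Itga2b was tested, at 4.69 CPM in wild type with solvent, and it rose by 0.70 log2 units there and by 0.86 in heterozygous cultures, the latter lost with spike-in scaling (0.16). F13a1, the A subunit of coagulation factor XIII, varied widely, from 9.57 to 28.4 CPM in wild type with solvent and from 1.98 to 7.43 CPM with FK228. In heterozygous cultures F13a1 went from 16.8 ± 7.14 to 1.93 ± 2.04 CPM. Spi1, the gene of PU.1, held 125 counts in wild type with solvent and 8 with FK228, and 88 and 10 in heterozygous cultures, with log2 fold changes of -3.73 ± 0.66 and -3.01 ± 0.66.

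**Figure D2:**
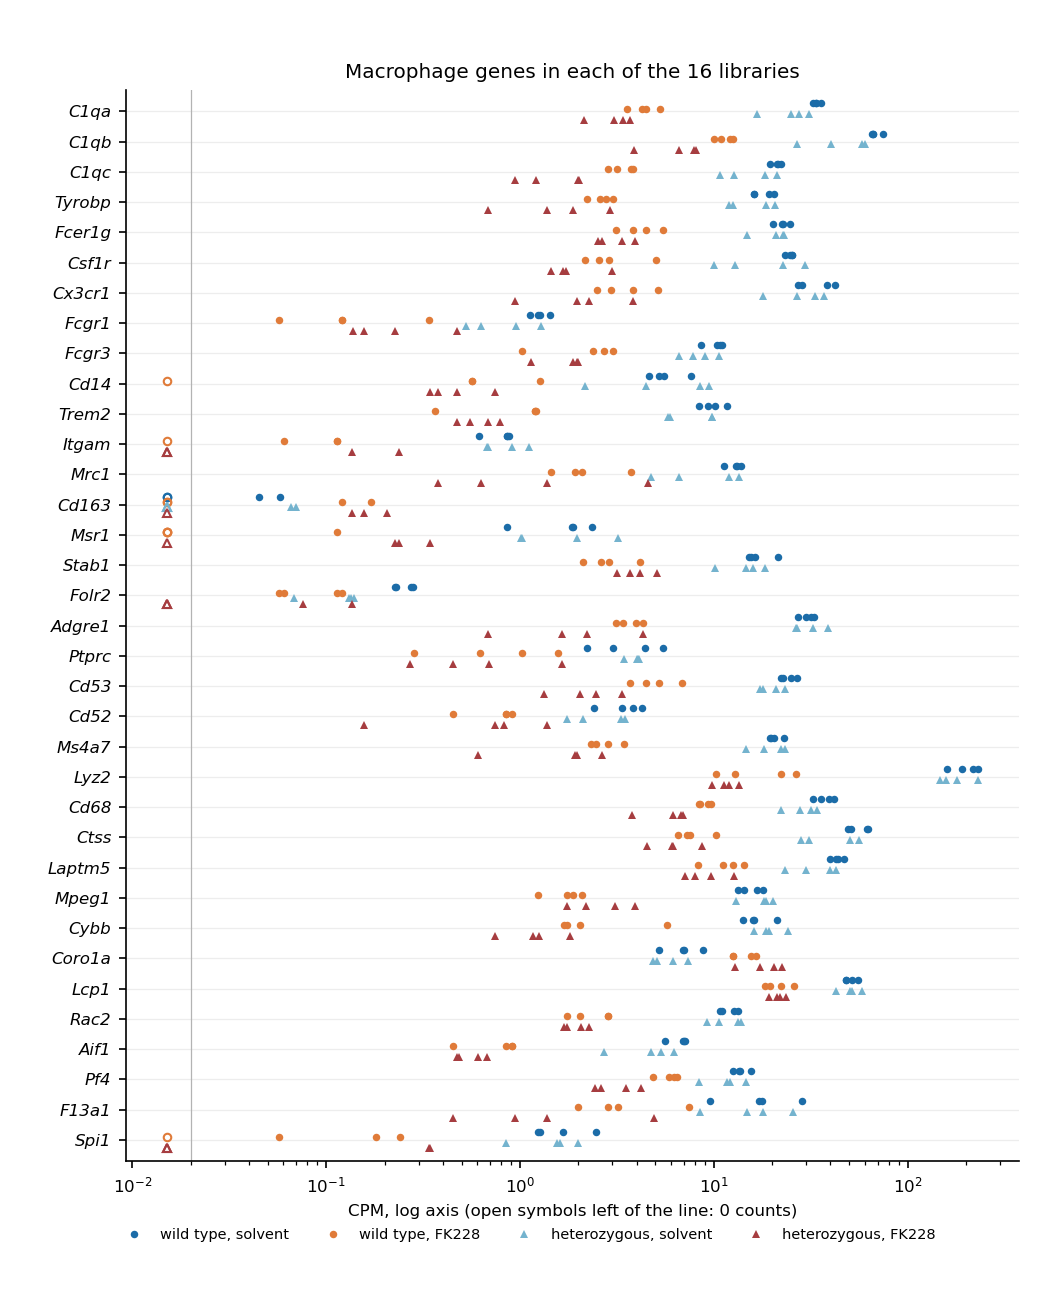
CPM of each of the 35 macrophage genes (rows, grouped by role) in the 16 libraries on a log axis, with libraries without a count drawn open at the left. Orange and red FK228 symbols lie left of the blue solvent symbols for 32 of the 33 genes tested and right of them for Coro1a.

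The next question was whether the fall was the same for each gene. As a share of its mean solvent level, the median gene kept 16.2% in wild type and 12.2% in heterozygous cultures. In wild type 22 of the 33 genes kept between 5% and 20%, and in heterozygous cultures 24 did. Apart from Coro1a, at 205% and 311%, the values ran from 1.64% for Msr1 to 42.4% for Pf4 in wild type, and from 6.39% for Cybb to 42.5% for Lcp1 in heterozygous cultures. The standard errors of the log2 fold changes had a median of 0.25 in wild type and 0.27 in heterozygous cultures, while the fold changes themselves had an SD of 1.01 and 1.05 over the 33 genes. Coro1a is included in these SDs and widens them. The quartiles of the fold changes were -3.09 and -2.24 in wild type, and -3.26 and -2.29 in heterozygous cultures.

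Each gene was therefore also tested against the median fall of the list instead of against no change. That median came from the same libraries and genes and was treated as fixed. The errors and p-values of this test therefore leave out the error of the median itself. By a Bonferroni adjustment over all genes, 3 of the 33 differed from the median in wild type and 2 in heterozygous cultures, and all lay above it. Of all genes tested, 82.2% and 86% differed from these medians. Coro1a was 3.66 ± 0.20 log2 units above the median in wild type (edgeR, Bonferroni adjusted p = 5.84e-09) and 4.64 ± 0.21 in heterozygous cultures (adjusted p = 1.56e-10). Lcp1 was 1.38 ± 0.11 above (edgeR, Bonferroni adjusted p = 6.73e-06) and 1.78 ± 0.12 above (adjusted p = 1.56e-07). The wild-type call of Lcp1 was lost when the summed macrophage genes other than Lyz2 served as library size (0.99, edgeR, Bonferroni adjusted p = 0.0531). With that library size Lyz2 passed in heterozygous cultures, at -1.66 (edgeR, Bonferroni adjusted p = 0.0182). Pf4 was 1.39 ± 0.18 above in wild type (edgeR, Bonferroni adjusted p = 0.00924) and 1.14 ± 0.20 above in heterozygous cultures (adjusted p = 0.363). The wild-type call of Pf4 was lost without FK228 library 1 (edgeR, Bonferroni adjusted p = 0.0534), solvent library 3 (adjusted p = 0.0658) or solvent library 4 (adjusted p = 0.0805). It was also lost with the summed macrophage genes other than Lyz2 as library size (adjusted p = 0.470) or a replicate block (adjusted p = 0.920). The other 30 genes in wild type and 31 in heterozygous cultures did not pass, which does not show that they fell equally.

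The milder Benjamini-Hochberg adjustment called 10 genes in wild type and 12 in heterozygous cultures, where it called 97.3% and 98% of all genes. In wild type 5 of the 10 lay above the median, namely Coro1a, Lcp1, Pf4, Laptm5 and Cd68, and 5 below, namely Msr1, Lyz2, Trem2, Cx3cr1 and Mpeg1. In heterozygous cultures 9 of the 12 lay above, the first 5 of those and also Cd52, Fcgr1, Fcgr3 and Stab1, and 3 lay below, namely Lyz2, Adgre1 and Cybb. Lyz2 lay 0.84 ± 0.22 log2 units below the median in wild type (edgeR, adjusted p = 0.00128) and 0.93 ± 0.23 below it in heterozygous cultures (adjusted p = 0.000765).

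**Figure D3:**
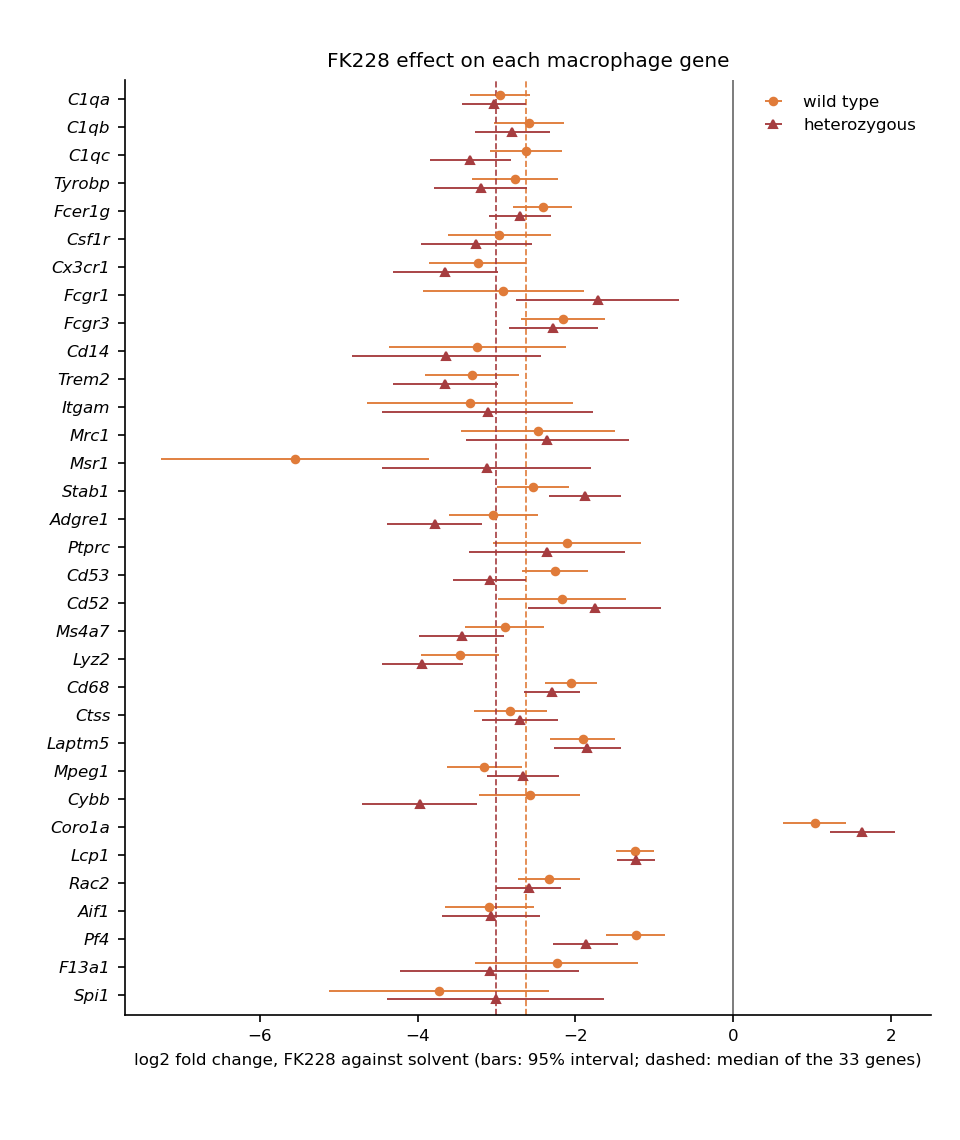
Log2 fold change of each tested macrophage gene with FK228 against solvent (circles wild type, triangles heterozygous; bars 95% intervals of the edgeR fit), with the median of the 33 genes dashed at -2.63 and -3.01. The intervals of Lcp1 lie right of both dashed lines, and Coro1a lies right of 0.

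The makeup of the summed signal changed accordingly. Lyz2 made up 23.6% ± 3.17 of the summed CPM in wild type with solvent and 11.6% ± 4.76 with FK228, and 24.9% ± 4.09 and 9.60% ± 1.74 in heterozygous cultures. Coro1a made up 0.83% ± 0.18 and 9.34% ± 2.01 in wild type, and 0.819% ± 0.146 and 15.2% ± 4.46 in heterozygous cultures. Without both genes the sum went from 638 ± 40.9 to 123 ± 16.9 CPM in wild type and from 537 ± 93.2 to 92.5 ± 15.4 CPM in heterozygous cultures. Coro1a also stood apart across the 16 libraries, with a Pearson r of -0.92 between its log2 CPM and the mean profile of the list, where the other genes ranged from 0.88 (Msr1) to 0.99 (Fcer1g). These r values mostly restate the difference between treatments.

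The comparison of genotypes asked whether the Rest mutation altered these genes. In solvent 0 of the 33 genes passed (edgeR, lowest adjusted p = 0.209, for C1qb), while 2.03% of all genes did and 0.823% did so downward. The median log2 fold change of heterozygous against wild type was -0.24, with 26 of 33 genes below 0 and 6 at an unadjusted p under 0.05, namely C1qa, C1qb, C1qc, Cd68, Ctss and Aif1. Of all 17125 genes tested, 8971 lay below 0 and 1936 had an unadjusted p under 0.05. DESeq2 called 0 of the 33 and limma voom 0. In CPM the summed C1q level was 123 ± 5.04 for wild type and 87.3 ± 26.0 for heterozygous cultures, where library 1 was lowest at 54.5 CPM.

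With FK228, 3 genes were lower in heterozygous cultures, beside 0.928% of all genes. Cd53 had a log2 fold change of -1.11 ± 0.23 (edgeR adjusted p = 0.0131), C1qc of -1.12 ± 0.26 (adjusted p = 0.0265) and Pf4 of -0.87 ± 0.20 (adjusted p = 0.0244). The 4 heterozygous libraries were below the 4 wild-type libraries for each of the 3 genes. The 3 were picked by a test on these same libraries, so this separation adds no support. Its share over all genes was not counted. Cd53 held 2.04, 2.48, 3.38 and 1.34 CPM in heterozygous libraries and 4.48, 6.83, 3.68 and 5.21 CPM in wild type. C1qc held 1.21, 2.00, 2.03 and 0.944 CPM against 3.18, 3.75, 2.84 and 3.85 CPM. Cd53 passed with any single library left out, and the count fell to 1 without heterozygous library 5 or wild-type library 1, 2 or 7. The C1qc call was lost without any of those 4 or heterozygous library 2 (adjusted p from 0.0505 to 0.0941), and the Pf4 call without any of those 4 or heterozygous library 3 (0.0644 to 0.0858). A fit of only the 8 libraries compared called 1 of the 28 listed genes tested there. It lost Cd53 (edgeR adjusted p = 0.0557) and C1qc (adjusted p = 0.0510). A replicate block called 0, with edgeR adjusted p of 0.137 for Cd53, 0.124 for C1qc and 0.221 for Pf4. limma voom called 2 genes, DESeq2 6 and spike-in scaling 23, the latter beside 74.5% of all genes lower. For voom and DESeq2 the share over all genes was not counted.

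Whether the FK228 effect itself differed between genotypes was tested as an interaction, and 0 of the 33 genes passed (edgeR, lowest adjusted p = 0.641, for Cybb), beside 0.0234% of all genes (0.00584% lower and 0.0175% higher). At an unadjusted p under 0.05 there were 995 of all 17125 genes and 6 of the 33, namely Cybb, Cd53, C1qc, Pf4, Coro1a and Stab1. Cybb had the largest of these, with a further fall in heterozygous cultures of 1.39 log2 units (95% interval -2.36 to -0.42), and wild-type FK228 library 1 was high for it. DESeq2 called 0 of the 33 and limma voom 0, but spike-in scaling called 11, with a median of -0.78. Of all genes, that scaling called 23.7% lower and 0.0526% higher, with a median of -0.56.

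Libraries of 1 group also differed among themselves. Heterozygous solvent library 1 lay below the group mean for 26 of 33 genes, with a median deviation of -0.33 log2 units, and library 4 lay above it for 26, with a median of 0.22. Not every gene followed. Adgre1 held 32.5 and 38.8 CPM in libraries 1 and 2 and 26.9 and 26.4 CPM in libraries 4 and 5, and Cd14 held 8.46 and 9.49 against 2.15 and 4.45 CPM. Msr1 was likewise higher in the first pair, at 1.96 and 3.21 against 1.01 and 1.03 CPM, while C1qb was lower in it, at 27.0 and 40.4 against 60.1 and 57.9 CPM. The share of reads outside genes was 19.7% and 17.9% in the first pair and 10.4% and 12.9% in the second, and its part in these differences was not tested. Among the heterozygous FK228 libraries, library 4 was highest for Mrc1 (68 counts) and F13a1 (73 counts). In wild type the median deviations of the solvent libraries stayed between -0.08 and 0.06, and those of the FK228 libraries between -0.19 and 0.16.

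Macrophage genes outside the list were then examined. Of 29 other surface receptors tested, 25 fell and 0 rose in wild type, with a median of -2.57, and 24 fell and 0 rose in heterozygous cultures, with a median of -2.77. C3ar1, the receptor for complement C3a, fell 5.45-fold and 6.82-fold. Tlr2 (log2 fold changes 0.06 and 0.07), Mertk (-0.08 and 0.04) and Tmem119 (-0.18 and -0.19) did not pass in either genotype, although with spike-in scaling all of the 29 were lower in heterozygous cultures. Of 22 genes of myeloid signalling, 18 fell and 1 rose in each genotype, with medians of -1.76 and -1.45. Myo1f, a myosin of leukocytes, fell 13.5-fold and 7.82-fold, and Plcg2, a phospholipase downstream of immune receptors, rose 2.12-fold and 2.22-fold, the latter lost with spike-in scaling (log2 fold change 0.44, edgeR adjusted p = 0.138). Of 10 myeloid transcription factors, 7 fell in wild type and 5 in heterozygous cultures and none rose, with medians of -1.03 and -1.15, and the smallest p was that of the liver X receptor gene Nr1h3 at -1.42 ± 0.21 and -1.66 ± 0.21.

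The ligands that act on these receptors are often made by neighbouring cells. Csf1 fell by 0.94 log2 units in wild type (edgeR adjusted p = 0.00598) and by 0.95 in heterozygous cultures (adjusted p = 0.00599). Il34, the second CSF1R ligand, fell by 1.80 in wild type and had a value of -1.01 in heterozygous cultures (adjusted p = 0.0529), where it passed with spike-in scaling (-1.80, adjusted p = 0.00119). Cx3cl1, the ligand of CX3CR1, had -0.05 and -0.16 and did not pass, except with spike-in scaling in heterozygous cultures (-0.85, adjusted p = 0.0108). The stromal chemokine gene Cxcl12 fell 3.3-fold and 2.97-fold. Of 12 ligands and chemokines tested, 6 fell and 1, Cxcl10, rose in wild type, and 8 fell in heterozygous cultures. The Cxcl10 call (log2 fold change 1.12, edgeR adjusted p = 0.0494) was lost with spike-in scaling (0.94, adjusted p = 0.146).

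Genes of activation, antigen presentation and digestion did not move as one. Of all genes tested, 25.3% fell and 23.7% rose in wild type, and 24.7% fell and 23.8% rose in heterozygous cultures. Of 11 activation genes, 8 fell and 1 rose in wild type and 9 fell and 2 rose in heterozygous cultures. Gpnmb, a glycoprotein of lipid-laden macrophages and melanocytes, fell 4.04-fold in wild type, and Spp1, which encodes osteopontin, rose 1.84-fold in heterozygous cultures, a call lost with spike-in scaling. Of 7 class II genes, 2 fell and 2 rose in wild type, and 1 fell and 2 rose in heterozygous cultures. The class II split in wild type was near that of all genes. H2-DMa, a peptide-loading chaperone subunit, rose 2.13-fold in wild type and 2.10-fold in heterozygous cultures. Of 20 lysosomal genes expressed in most cell types, 10 fell and 2 rose in wild type with a median of -0.06, and 9 fell and 7 rose in heterozygous cultures with a median of -0.11. The split of the latter was 16 lower and 0 higher with spike-in scaling. Ctsc, which encodes a dipeptidyl peptidase, had the smallest p of those that fell in wild type, at 1.94-fold.

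**Figure D4:**
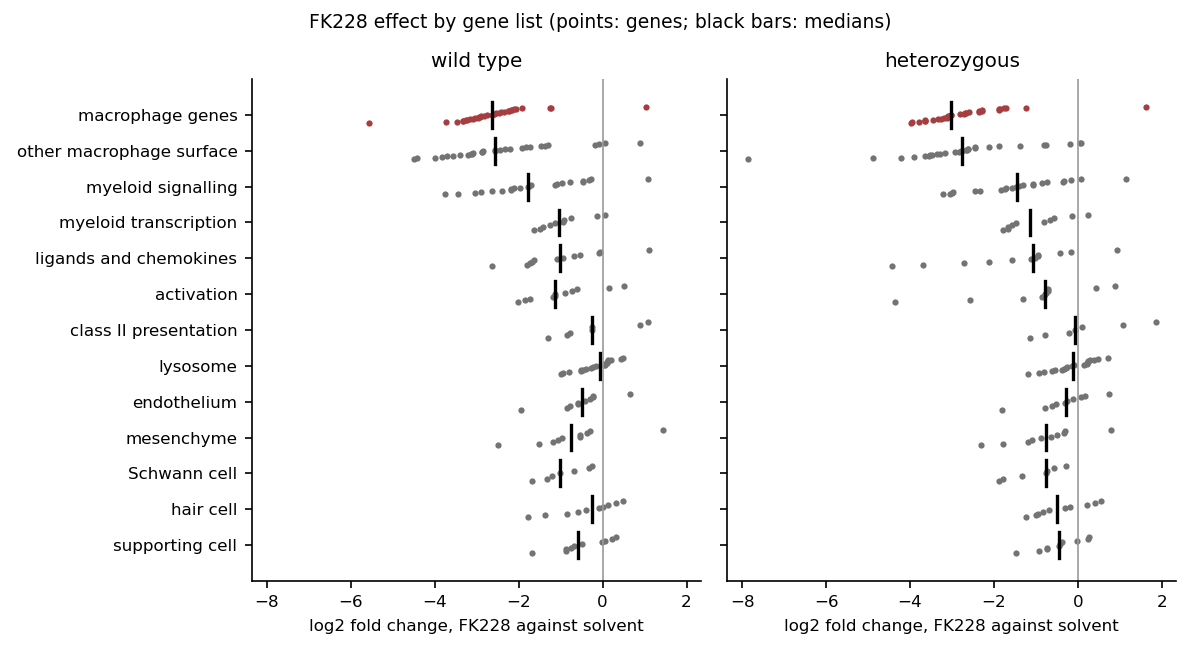
Log2 fold changes with FK228 against solvent of every tested gene (points) in 13 gene lists, with each list's median as a black bar, in wild type (left) and heterozygous cultures (right). The macrophage genes and the other macrophage surface genes have medians from -2.57 to -3.01, and the lysosomal genes have medians near 0. The leftmost point on the right is Tlr7, which had no count in the heterozygous FK228 libraries.

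Gene lists of the tissue's other cell types had medians nearer to 0, whereas some blood cell lists did not. Medians in wild type and heterozygous cultures were -0.50 and -0.29 for 10 endothelial genes, -0.76 for 10 mesenchymal genes in both, -1.01 and -0.77 for 7 Schwann cell genes, -0.58 and -0.45 for 10 supporting cell genes and -0.25 and -0.51 for 10 hair cell genes. With spike-in scaling those in heterozygous cultures lay between -1.01 and -1.50. Emcn, an endothelial sialomucin, fell 3.84-fold and 3.5-fold, and Prrx1, a mesenchymal transcription factor, fell 5.64-fold in wild type. Of the blood cell lists, the 2 B cell genes tested had medians of -3.90 and -3.43, the 3 granulocyte and monocyte genes -1.51 and -2.57, and the 3 T and NK cell genes -0.55 and -0.19. Cd4 and Ighm fell from 1.20 to 0.0566 CPM and from 2.98 to 0.0906 CPM in wild type, and Prtn3, a neutrophil serine protease gene, rose from 1.86 to 10.6 CPM. Lck, a T cell kinase gene, was the highest T and NK cell gene at up to 15 CPM and did not pass (log2 fold changes -0.38 and -0.19).

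By Pearson r with the mean profile of the list over the 16 libraries, the 15 most alike genes outside it were Srpx, Cpxm1, Ctsk, Tmem29, C1d, Herpud1, Chac1, Sephs1, Pck2, Sgce, Akt2, Peg12, Eif4g2, Anp32b and Cmtm3, with r from 0.99 (Srpx) to 0.98 (Cmtm3). Since the profile is mostly the difference between treatments, any gene that FK228 lowers evenly can rank here. Their log2 fold changes in wild type ran from -0.82 for Sgce to -2.47 for Srpx, so that none reached the median of the macrophage genes. Ctsk, which encodes the osteoclast protease cathepsin K, fell from 25.4 ± 3.86 to 6.62 ± 0.873 CPM in wild type.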

How the data were processed

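RNA of 16 libraries (4 groups of 4) was read by oligo dT priming, template switching, tagmentation and paired-end sequencing, as the labels' protocols describe. For every library there is a file of gene counts, which the authors deposited. The submitters' processing notes name STAR 2.5.2a and the build GRCm38.p4, and the unstranded column was used. A table of normalized signal was deposited as well, for which those notes name DESeq2. Each normalized value times 1 factor per library (0.801 to 1.41) gave the count, so it served only to find the genes. Spike-in and summary rows were left out. Without strand, reads of overlapping genes are not told apart.

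Genes kept by filterByExpr (minimum count 10, minimum total 15) were fitted in edgeR 4.0.16 (R 4.3.3) by quasi-likelihood with TMM factors and a mean per group over all 16 libraries. P-values were adjusted by Benjamini-Hochberg over 17125 genes, with a threshold of 0.05. Fold errors are SEs. For the test against the list's median, the FK228 library sizes were multiplied by 2 to the power of that median. As an alternative, the summed counts of the listed genes other than Lyz2 served as library size. Correlations with the profile used log2 CPM with an offset of 0.5. Exon lengths and positions came from GENCODE M21. The fits were tested on simulated data. Alternatives were DESeq2 1.42.0, limma 3.58.1 voom, RLE factors, spike-in scaling, no filter, a stricter filter (1 CPM in 8 libraries), the groups of a contrast alone, a replicate block, and each library left out. Leaving out the 2 libraries with the fewest reads outside genes was chosen after seeing the data. Counting intervals are exact at 95% and cover counting error only.

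The macrophage genes and the 20 other lists were chosen with earlier results of these data known, so no list test is given. All listed macrophage genes are named, and of each other list the gene with the smallest p in each direction, with Csf1, Il34 and Cx3cl1, the highest gene of another blood cell type and the 15 genes most like the list's profile. Tlr2, Mertk, Tmem119 and Tlr7 were named after their values were seen.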

Additional observations from a re-analysis of the deposited data

Results flagged for a closer look

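Within each group, the highest or lowest of 4 libraries was set against its neighbours for the 33 tested genes and the summed level. Of 136 such groups 10 held a library standing apart from the other 3, where chance gives about 1 in 20. Wild-type solvent library 1 was high for C1qb, at 74.6 CPM beside 65.8 to 66.7. Wild-type solvent library 3 was low for Aif1, at 5.61 CPM beside 6.96 to 7.10, and for Itgam, at 0.617 CPM beside 0.859 to 0.880. Heterozygous solvent library 1 was low for Ptprc, at 3.43 CPM beside 3.99 to 4.11.

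With FK228, wild-type library 1 was high for Cybb, at 5.73 CPM beside 1.69 to 2.04, and was the only one with counts of Msr1, at 0.114 CPM. Wild-type library 7 was low for Aif1 and Cd52, at 0.453 CPM for each, beside 0.851 to 0.906 for Aif1 and 0.846 to 0.906 for Cd52. Wild-type library 4 was low for Trem2, at 0.362 CPM beside 1.19 to 1.21. Heterozygous library 2 was low for Fcgr3, at 1.13 CPM beside 1.89 to 2.00.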

How the results depend on the processing

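The counts of 32 lower genes and Coro1a higher held in both genotypes with DESeq2, voom, RLE factors, spike-in scaling and each library left out. Medians with a library left out ran from -2.75 to -2.60 in wild type and from -3.14 to -2.74 in heterozygous cultures, and with spike-in scaling they were -2.78 and -3.72. Replicate numbers did not pair the libraries (correlations of deviations from -0.23 to 0.17), and the replicate block gave 32 and 32 lower genes but 0 for genotype with FK228. For genotype with FK228 the main count of 3 became 6 with DESeq2, 5 without a filter and 2 with voom. It became 1, of 28 listed genes tested, with only the groups compared. With spike-in scaling it became 23, and the median moved to -1.17 from -0.43. Apart from spike-in scaling, the shares of all genes called with these settings were not counted. The count of listed genes ran from 1 to 4 with a library left out, with medians from -0.57 to -0.34. Spike-in scaling also gave 1 gene for genotype in solvent, beside 1.12% of all genes lower and 0.607% higher. It gave 11 interactions, beside 23.7% of all genes lower and 0.0526% higher. Leaving out libraries gave 0 for both contrasts, with medians from -0.32 to -0.11 in solvent and from -0.30 to 0.01 for the interaction. Against the list's median, Benjamini-Hochberg adjustment gave 10 genes in wild type and 12 in heterozygous cultures. Taking the summed macrophage genes other than Lyz2 as library size gave 1 in wild type and 3 in heterozygous cultures. Lyz2 was among the latter, on the lower side. Leaving out libraries gave 2 to 3 and 2 to 2. Beside the scaling's own shift, the cause of these moves was not tested. Leaving out the 2 doubted libraries moved no count past 1.5 times. Low counts limit Msr1, Itgam, Fcgr1 and Spi1, and Cd163 and Folr2 were fitted only without a filter.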

Other observations

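The remaining genes with the smallest p of their list and direction are given here as values, all from the edgeR quasi-likelihood test of FK228 against solvent. Among macrophage and myeloid genes, the heme oxygenase gene Hmox1 fell by 0.70 log2 units in heterozygous cultures, and the costimulatory receptor gene Cd40 rose by 0.52 in wild type, a call lost with spike-in scaling (0.38, adjusted p = 0.148). The class II chain gene H2-Aa fell by 1.31 in wild type, and Ciita, the class II transactivator gene, fell by 1.15 in heterozygous cultures. Csf3r, the G-CSF receptor gene, fell from 1.28 to 0.0443 CPM in wild type, and Camp, the cathelicidin gene of neutrophils, fell from 1.01 to 0.160 CPM in heterozygous cultures. Zbtb46, a transcription factor of dendritic and endothelial cells, rose by 0.66 in wild type and by 0.48 in heterozygous cultures, where spike-in scaling turned the value to -0.25 (adjusted p = 0.213). Of the lysosomal genes, the cathepsin L gene Ctsl rose by 0.44 in wild type, the tetraspanin gene Cd63 fell by 0.61 in heterozygous cultures and the protease gene Lgmn rose by 0.71 there. With spike-in scaling the Ctsl and Lgmn values were 0.29 (adjusted p = 0.0684) and 0.01 (adjusted p = 0.940).

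In the other tissues' lists, the endothelial gene Egfl7 rose by 0.65 in wild type and 0.73 in heterozygous cultures, the hair cell genes Myo6 and Otof changed by 0.48 and -0.57 in wild type and by 0.55 and -0.83 in heterozygous cultures, and the collagen gene Col1a1 rose by 1.43 and 0.78. The rises of Egfl7, Myo6 and Col1a1 in heterozygous cultures were lost with spike-in scaling (0.01, -0.16 and 0.06). S100b fell by 0.88 and 0.92, the myelin gene Pmp22 fell by 1.33 and 1.32, and the transcription factor gene Pou3f4 fell by 1.20 in heterozygous cultures.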
